A study of Mus musculus with 6 samples.

Results

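Accessible chromatin was mapped around 8 genes for transcription factors of epithelial-mesenchymal transition (EMT), Zeb1, Zeb2, Snai1, Snai2, Twist1, Twist2, Prrx1 and Prrx2, out of 21883 protein-coding genes. The study applied ATAC-seq, which marks open DNA by the insertions of the Tn5 transposase, to cultured mouse dermal fibroblasts of genotype WT (3 libraries) or Lap2alpha KO (3 libraries). Lap2alpha is a splice form of lamina-associated polypeptide 2 that binds A-type lamins inside the nucleus. All cells grew in the same serum-containing medium. Not given in the sources used here are how the KO was made, the age of the mice, and whether the libraries of a genotype came from separate animals or cultures. For each genotype the authors deposited 1 peak list without naming single libraries, so differences between WT and KO had no replicate check and no p-value was computed.

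A peak belonged to a gene when its summit lay in the RefSeq gene span or within 100 kb of either end. This gave 198 of 106132 WT peaks and 204 of 98072 KO peaks. Nearest to the limit, a WT peak at 97657 bp from Prrx1 was inside and a WT peak at 100894 bp from Prrx2 was outside. A peak counted as shared if at least 1 bp of it lay under a peak of the other genotype, and as WT-only or KO-only if not. Peak strength is given as a percentile, the rank of the authors' deposited signal within its own list. That signal is an area, so it also grows with the width of a peak. The lists differ in length and carry no common scale. Percentiles set side by side therefore describe each list and do not measure a change in the amount of accessible chromatin.

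The 8 factors form 4 pairs of related proteins. ZEB1 and ZEB2 are zinc-finger homeodomain repressors, and SNAI1 (Snail) and SNAI2 (Slug) are zinc-finger repressors. Both families bind E-boxes of the form CAGGTG in epithelial genes such as that of E-cadherin. TWIST1 and TWIST2 are basic helix-loop-helix proteins that bind E-boxes of the broader form CANNTG, and PRRX1 and PRRX2 are paired-type homeodomain proteins of embryonic and dermal mesenchyme. Fibroblasts are mesenchymal cells, in which several of these genes are normally active.

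The promoters of 6 of the 8 genes are in the RefSeq table used here (build GRCm38.p6), and 4 of them are printed, each as the 250 bases before the transcription start. The Snai1 and Twist1 promoters lay wholly and the Zeb2 promoter partly under peaks of both lists, whereas the Prrx2 promoter lay under none. Capitals mark matches of 3 sets of letters searched on both strands: the E-box CANNTG, the CCAAT box, which reads ATTGG on the other strand, and the TATAAA box.
Snai1 promoter, chromosome 2, plus strand: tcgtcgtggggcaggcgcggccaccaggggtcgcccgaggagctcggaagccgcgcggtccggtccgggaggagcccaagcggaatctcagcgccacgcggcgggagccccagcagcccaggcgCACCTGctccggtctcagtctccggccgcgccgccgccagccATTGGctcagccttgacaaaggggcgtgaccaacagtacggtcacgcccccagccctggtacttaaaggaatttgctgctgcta
Twist1 promoter, chromosome 12, plus strand: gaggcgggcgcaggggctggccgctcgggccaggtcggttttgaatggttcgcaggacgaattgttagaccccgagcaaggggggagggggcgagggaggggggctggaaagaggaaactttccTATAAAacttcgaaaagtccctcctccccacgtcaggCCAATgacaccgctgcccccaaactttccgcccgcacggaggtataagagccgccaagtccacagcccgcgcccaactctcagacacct
Zeb2 promoter, chromosome 2, minus strand: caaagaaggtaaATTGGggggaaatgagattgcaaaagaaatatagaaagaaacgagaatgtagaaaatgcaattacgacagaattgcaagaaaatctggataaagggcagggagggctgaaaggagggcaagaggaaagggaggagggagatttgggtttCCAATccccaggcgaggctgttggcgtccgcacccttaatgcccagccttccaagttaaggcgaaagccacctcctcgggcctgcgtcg
Prrx2 promoter, chromosome 2, plus strand: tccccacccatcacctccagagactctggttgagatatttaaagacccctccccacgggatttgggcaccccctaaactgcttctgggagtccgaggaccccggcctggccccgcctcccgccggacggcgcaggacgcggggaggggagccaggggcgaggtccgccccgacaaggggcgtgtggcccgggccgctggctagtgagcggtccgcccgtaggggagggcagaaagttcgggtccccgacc
The Snai1 promoter (chr2:167537945-167538194) held the only E-box match of the 6 genes. It reads CACCTG, which is CAGGTG on the other strand, and began 126 bases before the start. Over all 32851 promoter windows of 300 bases, 72.3% held an E-box of the broad form and 20.2% one of the form CAGGTG on either strand. These windows include 50 bases after the start, which the printed 250 bases do not, so all such shares are of longer stretches. Snai1, Twist1 (chr12:33957421-33957670) and Twist2 each held 1 CCAAT box, 84, 89 and 63 bases before the start. The Zeb2 promoter (chr2:45117443-45117692) held 2, and 37.4% of all windows held at least 1. Peaks covered 75% (WT) and 77% (KO) of the Zeb2 window, and its first capitals, ATTGG, which began 238 bases before the start, lay outside both. Twist1 also held TATAAA at 126 bases, a match found in 13.6% of all windows. Prrx1, Prrx2 (chr2:30845117-30845366) and the other Zeb2 starts held none of these letters. No match says only that the letters are not in this window.

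A promoter or gene-end peak was present in both lists at 6 genes, Zeb2, Snai1, Snai2, Twist1, Twist2 and Prrx1, in KO only at Zeb1 and in neither list at Prrx2. For comparison, 52.3% of 17491 genes with a listed promoter window had a peak there in both lists, 1.62% in WT only and 0.646% in KO only. For Snai2 and Zeb1, which have no entry in the promoter table, 1 kb around either gene end was used instead. By that measure, peaks of both lists lay at 56.1% of all genes, WT peaks alone at 2.47%, KO peaks alone at 1.31% and no peak at 40.2%.

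By signal percentile the highest promoter peak was that of Twist2, on chromosome 1. Its WT peak (91799548 to 91803191) stood at percentile 99.4, and its KO peak (91799649 to 91802360) at 97.9. By −log10 p at the summit it stood below Snai1, at 13.8 in WT and 13.4 in KO against 18.3 and 17.9. At Snai2, a peak over the lower gene end on chromosome 16 spanned 14704616 to 14706942 in WT (95.0) and 14704842 to 14707399 in KO (94.7). The Twist1 promoter peak on chromosome 12 ran from 33956561 to 33958118 in WT, at 92.4. In KO it continued to 33959168 as 1 peak of 2567 bp at 90.3. The WT list held 3 separate peaks over this stretch, with the same leading summit at 33956999. The leading peaks of Twist2, Snai2 and Twist1 stood above percentile 90 of their list, and the other 2 WT peaks at Twist1 stood at 30.4 and 29.3.

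At Snai1 the promoter peak spanned 167537319 to 167538454 in WT (percentile 89.1) and 167537503 to 167538436 in KO (87.9). Prrx1 had its promoter summit at 163313597 in both lists, at 84.3 in WT and 80.3 in KO. Zeb2 has 4 listed starts, all under peaks in both lists. Its outermost start lay under a WT peak of 434 bp at 58.5 and a KO peak of 1408 bp at 80.9, which also overlapped a neighbouring WT peak. At Snai1, Snai2, Twist1, Twist2 and Prrx1 the percentiles of the lists were thus within 5 points of each other, and at this Zeb2 start they were not.

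Zeb1 and Prrx2 departed from this pattern. At the lower end of Zeb1, on chromosome 18 from 5591327 to 5775468, a KO-only peak of 297 bp from 5592093 to 5592389 stood at percentile 26.5. The next peak was shared, at 5592584 to 5593571 in WT (74.9) and 5592524 to 5593569 in KO (77.1), with the summit at 5593254 in both. That shared peak began just past the 1 kb limit. Within 5 kb of a gene end, all 8 genes had peaks in both lists. At Prrx2 the nearest peaks lay 2192 bp (WT) and 2006 bp (KO) from the promoter window.

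**Figure D1:**
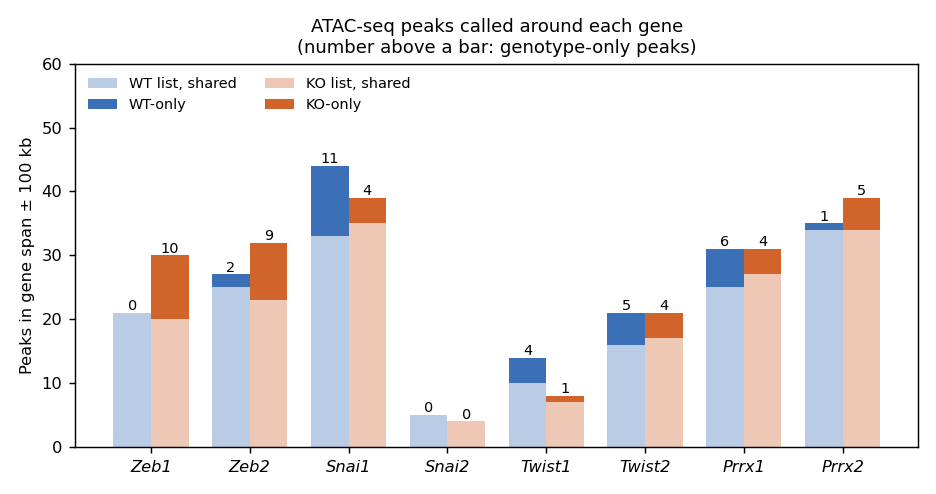
Number of ATAC-seq peaks (vertical axis) with the summit in the gene span or within 100 kb, for each gene and list; pale bars are shared peaks, solid bars and the numbers above them are genotype-only peaks. Zeb1 has 10 KO-only and 0 WT-only peaks, Snai1 has 4 and 11, and Snai2 has none in either list.

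The 8 windows together held 29 WT-only and 37 KO-only peaks. WT-only peaks were 14.6% of the WT peaks in the windows (exact 95% binomial interval 10.0 to 20.4, counting error only), against 20.4% of the whole WT list. KO-only peaks were 18.1% of the KO peaks (13.1 to 24.1), against 13.4% of the whole KO list. In WT the share of the whole list (20.44%) lay just above the upper limit (20.35%), and in KO it lay inside the interval. Neighbouring peaks are not independent, and some genotype-only peaks lay side by side, so the intervals test no difference. Without the Zeb1 window the WT-only and KO-only shares were 16.4% and 15.5%. All 29 WT-only peaks were weak, with percentiles of 1.20 to 35.8 and a median of 8.49, against a median of 17.8 for WT-only peaks of the whole list. KO-only peaks ranged from 0.105 to 64.6 with a median of 21.0, against 16.5 in the whole list, and 4 stood above percentile 50. None of the 18 WT or 21 KO peaks of the windows above percentile 90 was genotype-only, and such strong peaks rarely were anywhere, at 0.104% of the WT and 0.0816% of the KO list.

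KO-only peaks outnumbered WT-only peaks at Zeb1, Zeb2 and Prrx2, and WT-only peaks at Snai1, Twist1, Twist2 and Prrx1. Over the same windows of all protein-coding genes, KO-only peaks were in excess at 25.1%, WT-only peaks at 53.9% and neither at 21.1%. The median gene had 2 WT-only and 1 KO-only peaks. The split of 3 and 4 genes among the members was therefore not far from that of all genes.

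Zeb1 had 10 KO-only and 0 WT-only peaks among 30 KO and 21 WT peaks. An excess of 10 or more KO-only peaks was found at 0.457% of all genes. This share takes no account of window size: the median gene had 16 WT and 15 KO peaks, and Zeb1 spans 184142 bp. Inside the gene, KO-only peaks lay at 5592093 to 5592389, described above, at 5599825 to 5599979 (percentile 6.91), at 5686694 to 5687086 (25.5) and at 5696244 to 5696418 (14.3). The highest, at 60.7, lay beyond the upper gene end, from 5806328 to 5806963, and a neighbour from 5810346 to 5810964 stood at 53.7. These lay on either side of a shared peak that spanned 5808929 to 5809735 in WT (63.1) and 5808862 to 5810179 in KO (82.7). The strongest peak of the window was shared and lay 44336 bp past that end, at 5818688 to 5821016 in WT (98.4) and 5818516 to 5821052 in KO (99.6).

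Of 19 shared regions at Zeb1, where a region joins all overlapping peaks of both lists, 15 had the higher percentile in KO. Over all 81460 shared regions 40.8% did. Of the 4 exceptions 3 lay inside the gene and 1 in the lower flank. Near the lower gene end, a region at 5593757 to 5594095 stood at 40.5 in WT and 7.38 in KO, and its neighbour at 5594814 to 5595319 stood at 65.6 and 35.2. Further in, the region at 5665937 to 5666788 stood at 68.8 and 57.3. The shared peak between the first 2 of these and the gene end had nearly equal ranks in the lists.

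The neighbourhood of Zeb1 showed the same direction. On chromosome 18, 22.5% of KO peaks were KO-only, and in the 10 Mb block that holds Zeb1 24.3% were, against 33.3% in the Zeb1 window. In that block 79.5% of 259 shared regions had the higher percentile in KO, against 78.9% of those at Zeb1. The gene and its surroundings cannot be told apart by these counts. With a stricter summit threshold, which removed the 25% of peaks with the weakest summit p over both lists, the excess at Zeb1 was 1 peak, and counting only peaks above percentile 50 it was 2.

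Zeb2, on chromosome 2 from 44983512 to 45117442, had 9 KO-only and 2 WT-only peaks among 32 KO and 27 WT peaks. Of the KO-only peaks, 4 formed a stretch from 44922469 to 44925075 inside the neighbouring gene Gtdc1, at percentiles of 25.7 to 43.1. That stretch adjoined a strong shared peak, also in Gtdc1, at 44926150 to 44927832 in WT (93.3) and 44925790 to 44927852 in KO (95.2). Inside Zeb2, KO-only peaks lay at 44985096 to 44985464 (27.5), 45106339 to 45106647 (7.87) and 45107927 to 45108542 (4.31). Both WT-only peaks lay in the flank on the promoter side, from 45182963 to 45183120 (16.3) and from 45185290 to 45185516 (35.6). The strongest KO peak of the window was shared and lay 6207 bp past the lower end, which is the downstream side of this minus-strand gene. It ran from 44976142 to 44978449 at 98.1, against 44976398 to 44977894 at 90.6 in WT.

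Of 22 shared regions at Zeb2, 18 had the higher percentile in KO, and the median difference was 7.40 points. Of the 4 exceptions the furthest apart was a region inside the gene at 45019184 to 45020290, which stood at 84.1 in WT and 65.1 in KO. In the 10 Mb block of Zeb2, 26.9% of KO peaks were KO-only, against 28.1% in the window, and 72.5% of shared regions had the higher percentile in KO, against 81.8%. None of the genotype-only peaks at Zeb2 stood above percentile 50. With a stricter summit threshold the excess was 1 peak.

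**Figure D2:**
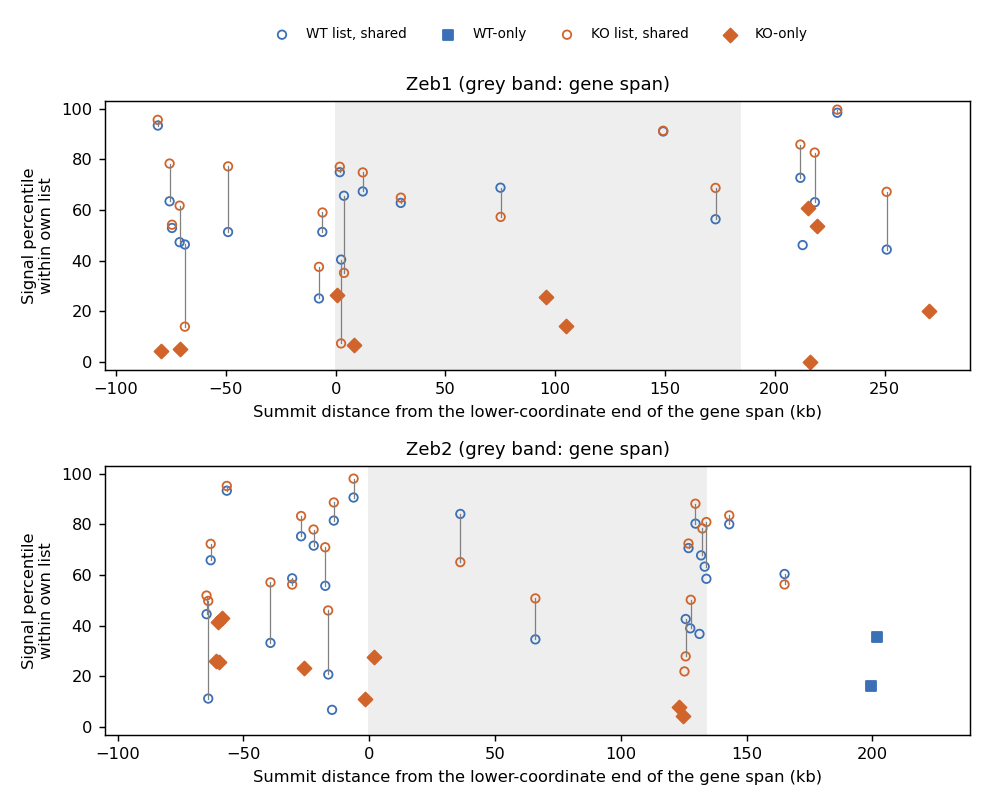
Peaks around Zeb1 (top) and Zeb2 (bottom), by summit distance from the lower-coordinate end of the gene span in kb (horizontal axis) and signal percentile within the own list (vertical axis); open circles are shared peaks, filled diamonds KO-only and filled squares WT-only peaks, and grey lines join the strongest WT and KO peak of a shared region. At Zeb1 the filled symbols are all KO-only and reach percentile 60.7, and at Zeb2 they reach 43.1.

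Prrx2, on chromosome 2 from 30845064 to 30881251, had nearly the same peaks in both lists but at different ranks. There were 35 WT and 39 KO peaks, of which 1 and 5 were genotype-only. Of 34 shared regions 32 had the higher percentile in KO, and 30 were wider in KO. These 2 counts are not separate observations, because the ranked signal is an area. At least 20 points separated the lists in favour of KO at 8 regions and in favour of WT at 1. Over all shared regions, 6.09% were at least 20 points higher in KO and 11.0% in WT.

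The difference was concentrated in 7 consecutive regions, from 30833405 to 30886525, which include every peak inside Prrx2. This stretch was chosen after its values were seen, as the longest run of consecutive regions at least 20 points higher in KO. Inside the gene, the region at 30848256 to 30848681 stood at percentile 14.5 in WT and 52.3 in KO. The region at 30864421 to 30865712 stood at 46.7 in WT and 81.1 in KO. The next stood at 30.02 and 67.7, and the last inside the gene, at 30870604 to 30871438, stood at 18.1 and 66.8. All 4 regions inside the gene were thus below percentile 50 in WT and above it in KO.

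By that choice, the flanking regions of the stretch also stood higher in KO. On the promoter side, the region from 30842402 to 30843110 stood at 27.6 in WT and 70.5 in KO, and the one from 30833405 to 30834627 stood at 3.03 and 67.0. Past the other gene end, a peak of 173 bp in WT (30885928 to 30886100, percentile 10.6) overlapped a peak of 1034 bp in KO (30885492 to 30886525, percentile 78.0). Their summits were 5 bp apart, at 30886008 and 30886013. In the stretch the peaks covered 2093 bp in WT and 6087 bp in KO, a ratio of 2.91, against 1.17 in the other regions of the window. The choice of the stretch bears on this ratio too, because the ranked signal is an area.

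Beyond the stretch, 25 of 27 regions at Prrx2 also had the higher percentile in KO, with a median difference of 5.87 points. The highest peak of the window was shared and lay in Ptges, which encodes a prostaglandin E synthase, at 97.6 in WT and 99.4 in KO. Of the 5 KO-only peaks 4 lay in Ptges, 3 of them side by side from 30901831 to 30903355 at percentiles of 9.90 to 28.8.

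The 10 Mb block of Prrx2 leaned to KO as well. In it 80.9% of 597 shared regions had the higher percentile in KO, with a median difference of 5.12 points, against 94.1% and 7.33 points in the Prrx2 window. Regions at least 20 points higher in KO were 11.2% of the block and 8 of 34 in the window. Regions at least 1.5 times as wide in KO were 24.6% of the block, 13 of 34 in the window and 11.8% of all shared regions. No test separates the window from its block.

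To compare ranks over equal numbers, the 75840 regions with 1 peak in each list were ranked among themselves. In this ranking, chosen after seeing the data, 33 of 34 regions at Prrx2 stood higher in KO, with a median difference of 11.0 points, where 50.4% of all pairs stood higher in KO and their median was 0.05. The medians were 10.4 points at Zeb2 (16 of 18 higher in KO), 5.69 at Zeb1 (13 of 17) and 14.9 at Snai2, from 3 regions. They were 6.14 at Twist2 (7 of 12) and 1.86 at Prrx1 (12 of 21), and below 0 at Snai1 (-0.38, 13 of 29) and Twist1 (-6.92, 2 of 5).

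**Figure D3:**
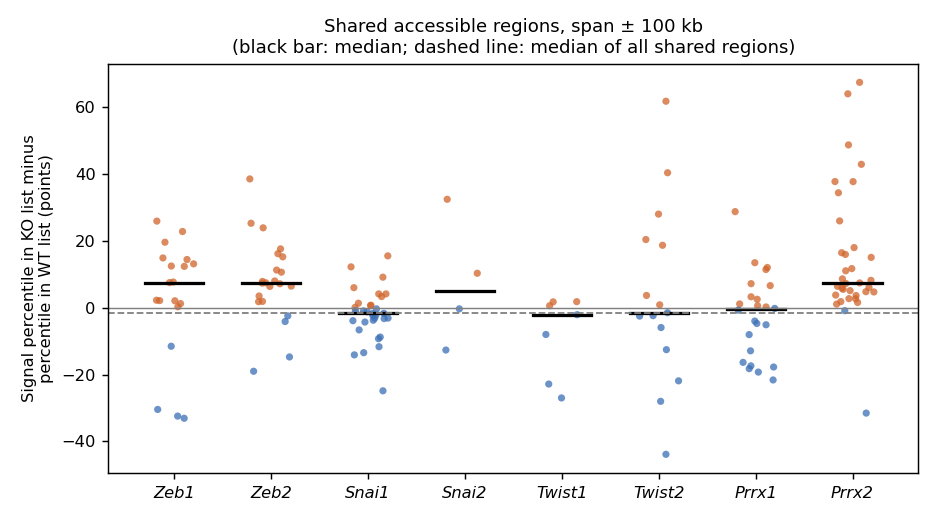
Difference of signal percentiles, KO list minus WT list (vertical axis, points), for each shared region in the windows of the 8 genes; orange points are higher in KO and blue points higher in WT, the black bar is the median of a gene, and the dashed line the median of all shared regions (-1.55). Prrx2 has 32 of 34 points above 0 and the widest upper tail, up to 67.4.

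Prrx1, the paralogue of Prrx2, lies on chromosome 1 from 163245119 to 163315145 and did not show this lean. It had 31 peaks in each list, 6 of them WT-only and 4 KO-only. Of 24 shared regions 11 had the higher percentile in KO, and of the 12 inside the gene 4 did. The region at 163274472 to 163275579, for example, stood at 76.0 in WT and 59.6 in KO. The strongest peak was shared, past the upper gene end, at 97.2 in WT and 96.9 in KO. The highest KO-only peak lay 80025 bp below the gene, from 163164995 to 163165366 at 42.2, and the highest WT-only peak lay inside it, from 163307810 to 163308159 at 20.1. In the 10 Mb block of Prrx1 36.0% of shared regions had the higher percentile in KO. The median difference was -0.46 points, and 1.86 among regions with 1 peak in each list.

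**Figure D4:**
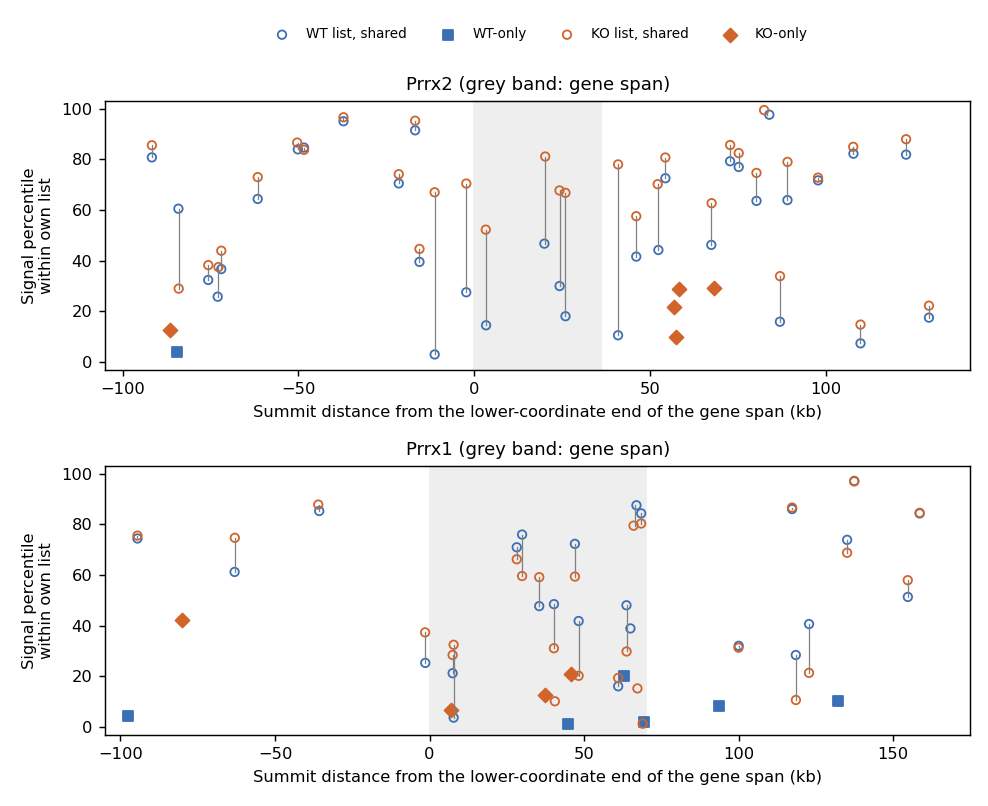
Peaks around Prrx2 (top) and Prrx1 (bottom), with axes and symbols as for the maps of Zeb1 and Zeb2 and grey lines joining the WT and KO peak of a region. In Prrx2 every region inside the grey gene span has the KO circle above the WT circle, by 34.4 to 48.7 points, whereas in Prrx1 4 of 12 do.

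Snai1, on chromosome 2 from 167538195 to 167542814, had 44 peaks in WT, the most of the 8 genes, and 39 in KO, as many as Prrx2. Of these 11 were WT-only and 4 KO-only, none inside the gene. The WT-only peaks were weak, at percentiles of 3.04 to 35.8, and 6 lay in the neighbouring genes Slc9a8, Rnf114 and Ube2v1. The highest WT-only peak lay 18495 bp past the gene, from 167561187 to 167561401. The highest KO-only peak, from 167546844 to 167547381 at 48.6, lay 125 bp from the nearest WT peak, itself WT-only.

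The strong elements past the end of Snai1 were shared and similar in rank. The nearest lay just past the gene, at 167542826 to 167544303 in WT (95.2) and 167542858 to 167544267 in KO (94.9), with its summit at 167543447 in both. Another spanned 167569461 to 167570976 in WT (97.0) and 167569472 to 167570957 in KO (97.6). The strongest spanned 167593946 to 167596630 in WT (97.9) and 167593989 to 167596607 in KO (98.6), 51920 bp past the gene. Of 32 shared regions 11 had the higher percentile in KO, with a median difference of -1.71 points, close to the -1.55 of all regions. In the block 21.8% of WT peaks were WT-only, against 11 of 44 in the window. With lists of equal length Snai1 had 1 more KO-only than WT-only peak, which turns its direction.

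Snai2, on chromosome 16 from 14705852 to 14709395, had the fewest peaks, 5 in WT and 4 in KO, and all were shared. Over all genes 12.2% had no genotype-only peak in their window. Besides the gene-end peak, peaks lay at 14703669 to 14704212 in WT (71.7) and 14703760 to 14704206 in KO (59.0), and at 14701457 to 14701672 in WT (31.6) and 14701426 to 14701844 in KO (41.9). The last lay past the upper end, at 14720876 to 14721072 in WT (4.33) and 14720833 to 14721072 in KO (36.8). The fifth WT peak, inside the gene at 23.9, lay under the same KO peak as the gene-end peak.

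Twist1, on chromosome 12 from 33957671 to 33959831, had 14 WT and 8 KO peaks. Of the 4 WT-only peaks 3 lay within 10 kb of the gene, at percentiles of 2.13 to 19.6. The KO-only peak, from 34048613 to 34048859 at 19.1, and the fourth WT-only peak, from 34051227 to 34051392 at 6.35, both lay in Hdac9, the gene that follows. A strong shared region lay 81275 bp past Twist1, between it and Hdac9, at 89.98 in WT and 91.8 in KO. In KO it was 1 peak from 34039608 to 34041351, and in WT 2 peaks covered it, the larger from 34039846 to 34041348. In the 10 Mb block KO had 80.4% of the WT peak number.

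Twist2, on chromosome 1 from 91801461 to 91848034, had 21 peaks in each list, with WT-only and KO-only peaks in different places. All 5 WT-only peaks lay inside the gene, 4 of them in a stretch from 91804082 to 91805749 just past the promoter peak, at percentiles of 4.95 to 19.96. The 4 KO-only peaks lay outside the gene. The highest KO-only peak of all 8 windows lay past the upper end, from 91857127 to 91857784 at 64.6, beside another from 91858133 to 91859027 at 59.7. Near them, a shared region had the largest rank difference outside Prrx2. It was a WT peak of 481 bp from 91851178 to 91851658 at 29.2 and a KO peak of 1873 bp from 91850043 to 91851915 at 90.9.

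Other shared regions at Twist2 went the opposite way. The region at 91872305 to 91873136 stood at 63.8 in WT and 19.99 in KO. Of 15 regions 7 had the higher percentile in KO, 4 by at least 20 points, and 3 were higher in WT by as much. In the 10 Mb block 44.6% had the higher percentile in KO. The excess of 1 WT-only peak at Twist2 turned to an excess of 4 KO-only peaks with lists of equal length.

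**Figure D5:**
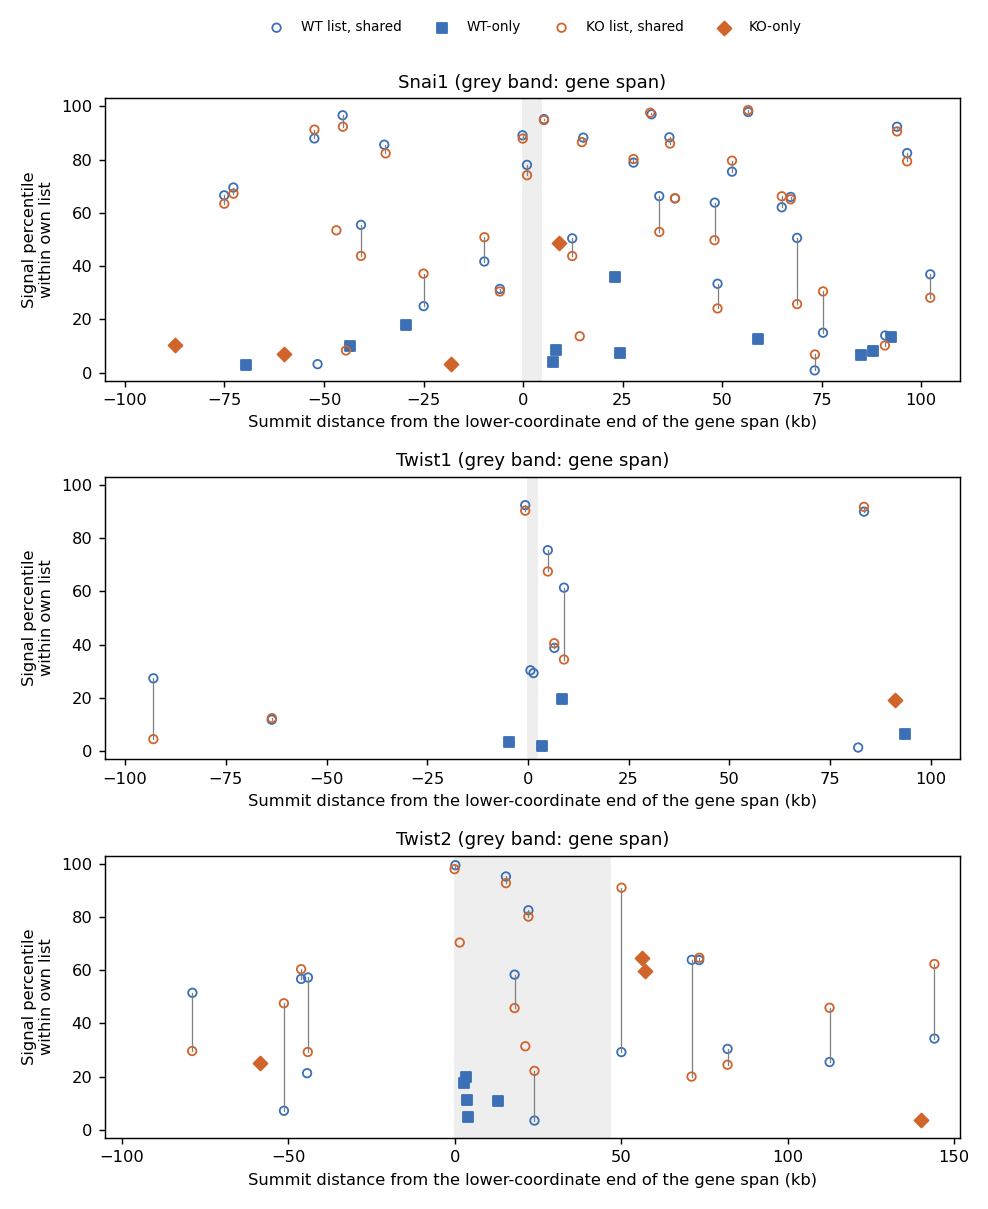
Peaks around Snai1 (top), Twist1 (middle) and Twist2 (bottom), with axes and symbols as for the maps of Zeb1 and Zeb2. The WT-only squares of Snai1 stay at or below percentile 35.8, and those of Twist2 lie inside the gene span while its KO-only diamonds lie outside it.

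Among other genes of EMT, 43 of 69 had gene-end peaks in WT and KO alike, against 56.1% of all genes. All 18 mesenchymal target genes did, among them Vim (vimentin, percentiles 99.3 in WT and 99.9 in KO), Cdh2 (N-cadherin, 96.9 and 98.3) and Fn1 (fibronectin, 97.5 and 95.0). Of 18 epithelial target genes 4 did and 13 had none in either list, among them Cdh1 (E-cadherin) and Epcam. Of 13 epithelial regulators 6 did and 7 had none, and of 20 other EMT transcription factors 15 did and 4 had none. Tbx2 was called in WT only and Crb3 in KO only, but each lay next to a shared peak that crossed the 1 kb limit in 1 list. At Tbx2 that peak began 939 bp from the gene end in WT and 1071 bp in KO, and at Crb3 the distances were 1061 bp and 976 bp.

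In the 100 kb windows, the epithelial regulators had 60 WT-only and 8 KO-only peaks, with more WT-only peaks at 11 of 13 genes and a median net of -3 KO-only peaks per gene. The epithelial target genes had 72 and 28 different peaks, with more WT-only peaks at 16 of 18 and a median net of -2.5. The mesenchymal target genes had 68 and 58, with more KO-only peaks at 9 and more WT-only peaks at 7, and a median net of 0.5. The other transcription factors had 88 and 50, with a median net of -0.5, against -1 for all genes. Of all genes 53.9% had more WT-only and 25.1% more KO-only peaks, and the whole lists held 21693 WT-only and 13162 KO-only peaks. Cdh1 had 11 WT-only and 2 KO-only, and Fn1 had 12 and 2. The medians of both epithelial lists were thus below, and that of the mesenchymal list above, the median of all genes. A peak in the windows of 2 neighbouring genes, such as Krt8 and Krt18, was counted once in these totals and at each gene in the counts per gene. The keratinocyte markers, most of which are in the epithelial lists, had 44 WT-only and 6 KO-only peaks, and the part of other cells was not tested. The lists were not tested against other genes.

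The labelled cell type was checked against marker genes. Of 11 dermal fibroblast markers 9 had gene-end peaks in WT and KO alike, among them Pdgfra, Col1a1 and Thy1, while Lum and Fap had none. Of 10 keratinocyte markers 2 did, Krt14 (8.11 in WT, 24.2 in KO) and Krt10, and Krt5, Krt1, Cdh1, Epcam and Trp63 were among the 7 with none. Ivl had a WT peak only. Of 7 leukocyte markers 3 did: Cd68 at 90.05 in WT and 91.6 in KO, Spi1 at 80.04 and 75.2, and Csf1r at 14.3 and 49.0. Ptprc, Cd3e, Itgam and Lyz2 had none. Of 6 endothelial markers 2 did, Cdh5 at 45.0 in WT and 5.97 in KO and Tek at 39.6 and 18.1, while Pecam1, Kdr, Tie1 and Emcn had none. These counts stand beside the 56.1% of all genes. In the 100 kb windows, the keratinocyte markers had 44 WT-only and 6 KO-only peaks, with more WT-only peaks at 9 of 10 genes, against 53.9% of all genes. Of these 10 genes 7 are also in the EMT lists: Krt5, Krt14, Cdh1, Epcam, Trp63, Dsp and Grhl2. The endothelial markers had 21 and 7, and the leukocyte markers 19 and 20. Of these 20, 11 lay at Csf1r, and 5 of the 7 leukocyte genes had more WT-only and 2 more KO-only peaks. The dermal fibroblast markers had 36 and 39 different peaks, with more WT-only peaks at 6 of 11 genes and more KO-only peaks at 4. The part of other cells in the peaks described above was not tested.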

How the data were processed

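ATAC-seq libraries of WT (3) and Lap2alpha KO (3) mouse dermal fibroblasts were compared. Per the submitters' processing notes, Bowtie2 2.5.1, Genrich, deepTools 3.5.1 and build GRCm38 were used. The settings, any shift of reads for Tn5 and the way libraries were combined are not given in the sources used here. Per peak, the authors deposited a score (not used), a signal area, a summit position and −log10 values of p (used for the stricter threshold) and q (not used). Peak lists hold no read totals, so the depth is unknown, and list length can follow depth.

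Gene spans (21883 protein-coding genes) and promoters came from RefSeq for GRCm38.p6, and symbols of 6 of 8 genes matched the promoter table. Python 3.11.15, numpy 2.4.6, pandas 2.3.3 and scipy 1.17.1 were used. Overlap code was tested on simulated data. All 8 genes were described, with their promoter peaks, the highest peak of each window and kind, and the genotype-only peaks in the span where the net was 5 or more. Of other EMT genes, those with a gene-end peak in 1 list only and Cdh1, Epcam, Vim, Cdh2 and Fn1 were named. Other genes were chosen after their values were seen. The genes and lists were chosen with earlier results of these data known. A further list of cell type markers is not reported here.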

Additional observations from a re-analysis of the deposited data

How the results depend on the processing

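The main counts in the 8 windows, 29 WT-only and 37 KO-only peaks, depended on the settings. They were 62 and 68 with sharing by a reciprocal overlap of 50%, 18 and 23 in windows of 50 kb, 65 and 71 in windows of 250 kb, 8 and 10 in gene spans only, 18 and 22 with peaks assigned to the nearest gene end, and 0 and 4 in the upper 50% by signal. WT-only peaks were 17 when no peak of the other list was allowed within 1 kb, 13 with a stricter summit threshold (the upper 75% of summits over both lists) and 8 with lists of equal length (73554 peaks each), where KO-only peaks were 27, 27 and 35. In the windows, KO-only peaks outnumbered WT-only peaks in all these settings and with neighbouring peaks joined (24 and 30, added after seeing the data). In the main setting this excess rested on Zeb1, without whose window the counts were 29 WT-only and 27 KO-only peaks. The whole lists changed too. Their WT-only and KO-only peaks were 35631 of 106132 and 27571 of 98072 with the reciprocal overlap, and 16585 and 10477 with the 1 kb gap. Under the stricter threshold they were 14654 of 78781 and 10011 of 74336. In the upper 50% they were 1851 of 53066 and 1181 of 49036, and with equal lengths 11601 and 11256 of 73554. Shared shares in the 8 windows, 85.4% of WT and 81.9% of KO peaks, were 68.7% and 66.7% with the reciprocal overlap and 100% and 96.5% in the upper 50%. In WT they were 91.4% with the 1 kb gap, 90.8% with the stricter threshold and 94.0% with equal lengths.

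By gene, Twist2 reversed from -1 to 1 with the 1 kb gap, 3 with the stricter threshold, 2 in the upper 50% and 4 with equal lengths. Prrx1 reversed from -2 to 1 with the stricter threshold and 2 with equal lengths, and Snai1 from -7 to 1 with equal lengths. Among regions with 1 peak in each list, the median rank difference reversed at Twist2 (6.14 points) and Prrx1 (1.86). The excess at Prrx2 was 9 with the stricter threshold and 10 with equal lengths, and 0 with nearest gene ends. The causes were not tested. Genes with a promoter peak in KO only fell from 1 to 0 with 5 kb around gene ends and with the stricter threshold. For the 69 other EMT genes, 301 WT-only and 149 KO-only peaks, summed over the genes (288 and 144 different peaks), became 514 and 345 with the reciprocal overlap, 178 and 108 with the stricter threshold and 20 and 7 in the upper 50%. Genes with a gene-end peak in WT only were 1 at first, 3 with the stricter threshold and 2 in the upper 50%, and in KO only 1, then 2 with the stricter threshold.

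No paired analysis was possible because each genotype has 1 combined list, so leaving out a library was not possible either. Unknown depth limits every count of weak peaks.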

Other observations

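The miR-200 family and miR-205 repress Zeb1 and Zeb2 and mark epithelial cells, and their loci were looked at after the data had been seen. Their mature sequences from RefSeq (GRCm38.p6) fall into seed groups, with the seed, bases 2 to 8, in capitals.
miR-200b-3p: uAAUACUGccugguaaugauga
miR-200c-3p: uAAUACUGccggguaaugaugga
miR-429-3p: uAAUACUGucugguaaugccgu
miR-200a-3p: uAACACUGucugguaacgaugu
miR-141-3p: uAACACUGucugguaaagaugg
miR-205-5p: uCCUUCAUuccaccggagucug
No peak of either list overlapped any of these hairpins. At the cluster of Mir200b, Mir200a and Mir429 on chromosome 4, no peak lay within 10 kb in either list, and the nearest was shared, 19842 bp from Mir429. At the cluster of Mir200c and Mir141 on chromosome 6, the nearest WT peak lay 4908 bp from Mir141, at percentile 88.5. A KO-only peak lay nearer, from 124716630 to 124717130, 783 bp from Mir141 at percentile 30.4. At Mir205 on chromosome 1 the nearest peaks were 3207 bp away in WT (49.4) and 3231 bp in KO (40.8).

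Cdh11, which encodes the mesenchymal cadherin-11 and was chosen here after its values were seen, had 10 KO-only and 0 WT-only peaks in its window. An excess of 10 or more, counted without regard to window size, was found at 0.457% of all genes, whose medians were 2 WT-only and 1 KO-only peaks. In its 10 Mb block on chromosome 8, 19.2% of WT peaks were WT-only and 13.4% of KO peaks KO-only. The highest peak within 1 kb of either end of Cdh11 stood at percentile 61.9 in WT and 99.4 in KO. These 2 peaks were found in each list separately and need not overlap.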
